A study of Mus musculus with 20 samples.

Results

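Suz12 binding was followed at 55 mouse genes of the homeobox and Pax families that lie outside the Hox clusters. They were taken by name as 12 LIM genes (Lhx1 to Lhx6, Lhx8, Lhx9, Lmx1a, Lmx1b, Isl1, Isl2), 5 sine oculis homeobox genes (Six2 to Six6), 6 Dlx, 6 Irx, 8 Nkx, 9 Pax, 2 Otx, 2 Pitx, 2 Msx and 2 Cdx genes and Gsc, out of 21631 annotated protein-coding genes. The names were taken by gene family and not by a cutoff on measured values, though with earlier results of these data known. Of the 55 genes, 53 had a Suz12 region within 1 kb of an annotated end, among 11943 regions in all.

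The cells were wild-type E14 mouse embryonic stem cells, an established line, grown in serum with leukemia inhibitory factor on gelatin. Chromatin bound by Suz12 was immunoprecipitated and sequenced before and after a block of transcription, by DRB at 100 µM for 0 h or 12 h, or by triptolide at 10 µM for 0 h or 9 h. Each of these 4 groups had 2 libraries, which the series' design calls biological replicates. All groups share the line, the wild-type genotype, the serum culture and the antibody, and the inhibitors differ in dose and time as well as in kind. DRB is a kinase inhibitor that stops RNA polymerase II from entering productive elongation, and triptolide acts on the TFIIH helicase and stops initiation.

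The protein Suz12 belongs to the core of Polycomb repressive complex 2 (PRC2), an enzyme that methylates histone H3 at lysine 27. In embryonic stem cells PRC2 sits on CpG-rich promoters of silent developmental regulators, among which homeobox and Pax genes are classic targets. Homeobox genes encode transcription factors that bind DNA through a homeodomain, and Pax genes encode factors with a paired domain, some of which carry a homeodomain too. They pattern the neural tube, the eye, the limbs, the face and many organs, and most of them are off in pluripotent cells.

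Counts were taken over the widest peak of each region and are given as CPM, counts per 1e6 reads counted over all regions, after scaling with TMM, which assumes that most regions do not change. A gene's main region was the one of highest mean CPM at either of its ends. The libraries held 1323926 to 7340023 reads over the regions, and within each group the replicates were further apart than counting alone gives (chi-square divided by its degrees of freedom, 2.47 to 8.65). Only reads over regions were counted, so changes are relative to the other regions, and a second scaling was set beside the first, in which the 4281 regions with a peak in all 8 lists were taken as the unchanged set. It moved the median log2 change of all regions from 0.049 to 0.41. Among the regions called in either direction over both drugs, the share called higher went from 49.2 to 82.2%. This second scaling is called kept-region scaling below. The DRB libraries are named by sequencing index, ATCACG before TGACCA in every pair of values, since their count columns carry no replicate number. Triptolide values are in the order of replicates 1 and 2. Per the column names, no lane number held both untreated and treated libraries, so lane and treatment cannot be told apart. Peak lists were also longer after treatment, with 5116 to 6886 peaks in untreated and 7153 to 10929 in treated lists.

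A Suz12 peak lay at an end of 52 of the 55 genes in all 8 lists, treated and untreated, where 13.9% of the 21631 annotated genes had one in all 8. Six4 had one in 6 lists, and Lhx4 and Pax4 had none at an end in any list. Most genes had 1 region at their ends (33 genes), 18 had 2 and Irx4 and Pax2 had 3, and no region was shared by members of the set. The signal over the counted peak had a median of 89.5 CPM per kb, from 25.4 at Six4 to 133 at Nkx2-1, and 46 of the 53 main regions were in the highest 25% by mean CPM among regions of all 8 lists. The counted peaks were 2061 to 19125 bp wide with a median of 6349 bp, and the narrowest belonged to Cdx1 and the widest to Lmx1b. Over merged regions the widest was that of Six3, at 21933 bp (chr17:85607279-85629211, GRCm38 as are all coordinates here).

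Lhx4, a LIM gene of pituitary and motor neuron development, was bound inside the gene and not at its ends. A region of 8800 bp (chr1:155735160-155743959) had a peak in all 8 lists and lay 7.77 kb inward of the gene's upper-coordinate end. It held the RefSeq promoter window of Lhx4. Its counts were 1082 and 1103 CPM at DRB 0 h against 719 and 759.6 at 12 h, and 1192 and 1223 CPM at triptolide 0 h against 766 and 731 at 9 h. Every treated library was below every untreated one, and the log2 change over both drugs was −0.63 ± 0.07 (SE, edgeR adjusted p = 1.84e-05, −0.26 with kept-region scaling). This internal region is not among the 53 main regions counted below. Pax4, a gene of the endocrine pancreas, had no peak at either end, and it is the single gene of the set with no region given here.

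Promoter sequences from RefSeq (GRCm38.p6), running from 250 bases before to 50 bases after a start, were matched by symbol for 42 of the 55 genes. All of their 53 windows overlapped a Suz12 region, 50 of them one with a peak in all 8 lists, and in 37 genes a window lay in the main region. No share over the windows of all protein-coding genes is given beside these counts. The windows are printed for 5 of these 42 genes that stand for the different patterns of Suz12 change. Six4 and Six5 rose, Lmx1a fell, Nkx6-2 was not called, and Lhx4 was bound only inside the gene. The first 4 were chosen after their values were seen. Capitals mark each CG dinucleotide, the base pair step that CpG islands are rich in, and each line runs 5′ to 3′ in the direction of transcription.
Six4 (chr12:73113196-73113495, minus strand): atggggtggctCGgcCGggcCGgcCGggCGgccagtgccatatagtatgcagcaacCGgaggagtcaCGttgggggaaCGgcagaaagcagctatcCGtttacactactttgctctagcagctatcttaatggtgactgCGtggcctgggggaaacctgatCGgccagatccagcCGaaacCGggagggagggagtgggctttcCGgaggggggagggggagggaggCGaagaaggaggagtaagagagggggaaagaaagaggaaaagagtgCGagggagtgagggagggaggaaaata
Six5 (chr7:19094294-19094593, plus strand): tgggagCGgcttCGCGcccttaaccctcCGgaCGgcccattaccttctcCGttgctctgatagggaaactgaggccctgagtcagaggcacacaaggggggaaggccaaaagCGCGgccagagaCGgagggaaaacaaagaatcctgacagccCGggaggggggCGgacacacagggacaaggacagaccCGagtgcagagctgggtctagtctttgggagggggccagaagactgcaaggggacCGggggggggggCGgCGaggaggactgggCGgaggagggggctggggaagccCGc
Lmx1a (chr1:167689308-167689607, plus strand): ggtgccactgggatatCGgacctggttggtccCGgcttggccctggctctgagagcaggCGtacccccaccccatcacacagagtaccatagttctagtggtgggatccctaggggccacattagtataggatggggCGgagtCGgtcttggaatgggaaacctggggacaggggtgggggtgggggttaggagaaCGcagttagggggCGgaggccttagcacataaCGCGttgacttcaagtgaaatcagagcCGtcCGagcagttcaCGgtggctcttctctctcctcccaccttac
Nkx6-2 (chr7:139582748-139583047, minus strand): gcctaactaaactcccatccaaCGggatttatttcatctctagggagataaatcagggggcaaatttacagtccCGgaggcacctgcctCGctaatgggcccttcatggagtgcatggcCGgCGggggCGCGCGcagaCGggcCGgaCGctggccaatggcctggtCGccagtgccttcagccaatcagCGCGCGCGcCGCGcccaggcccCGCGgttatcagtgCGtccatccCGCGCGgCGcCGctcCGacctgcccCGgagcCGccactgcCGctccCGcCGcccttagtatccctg
Lhx4 (chr1:155741978-155742277, minus strand): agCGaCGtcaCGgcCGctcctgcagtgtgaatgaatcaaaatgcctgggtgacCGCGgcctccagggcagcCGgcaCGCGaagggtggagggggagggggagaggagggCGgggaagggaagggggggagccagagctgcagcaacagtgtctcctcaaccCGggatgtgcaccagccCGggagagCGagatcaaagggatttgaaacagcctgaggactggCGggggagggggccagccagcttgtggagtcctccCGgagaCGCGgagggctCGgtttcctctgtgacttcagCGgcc

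The letters CG read the same on both strands, and they occur 16 times in the Six4 window, 17 times at Six5, 12 times at Lmx1a, 32 times at Nkx6-2 and 19 times at Lhx4. Of all protein-coding genes with a window, 48.5% hold at least as many as Six4, 46.4% as many as Six5, 56.5% as many as Lmx1a, 14.1% as many as Nkx6-2 and 41.6% as many as Lhx4. Over the 42 genes, with the most CG-rich window of each, the median was 19.5 and 90.5% held 10 or more. The same values were 18.5 and 86.5% over 52 other homeobox genes, and 15 and 60.2% over 17274 protein-coding genes. The windows of the genes that rose did not stand outside the range of the set, which went from 4 to 40.

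Suz12 fell at almost all of these genes after both inhibitors, relative to the other regions. Over the mean of both drugs, edgeR's quasi-likelihood test called 49 of 53 main regions lower, against 28.9% of all regions, and 2 higher, Six4 and Six5, against 28% of all regions. Nkx6-2 and Cdx1 were not called. The median log2 change was −0.58, where all regions had 0.049. Among regions with a peak in all 8 lists, to which 52 of the 53 belong, 59.1% were lower and 10.3% higher, at a median of −0.38, and 49 and 1 of the 52 were. Among the highest 25% of those regions by CPM, 76.5% were lower at a median of −0.46, and 45 of the 46 members there were. Lower calls were thus more frequent among strongly bound regions of the whole series as well. The main regions together took 4.02 to 4.20% of the reads over regions in the 4 untreated libraries and 3.18 to 3.33% in the 4 treated ones.

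With kept-region scaling the falls shrank and many were not called. Of the 53 regions 32 were lower, 3 higher and 18 not called, at a median of −0.21. All regions had 10.7% lower and 49.2% higher calls on that scale, and regions of all 8 lists had 23.3% lower and 27% higher, where 32 and 2 of the 52 members were. The 17 genes whose call ended were Lhx3, Lhx8, Isl1, Isl2, Six2, Dlx2, Irx1, Irx5, Nkx2-1, Nkx3-2, Nkx6-1, Pax6, Otx1, Otx2, Pitx3, Msx2 and Gsc. The calls for Six4 and Six5 stayed higher, and Nkx6-2 was called higher as well. By CPM after TMM, the highest treated library was below the lowest untreated library at 46 of the 53 genes (25.2% of all regions) and at 46 of the 52 with a peak in all 8 lists (53% of such regions). The reverse held at Six4 and Six5 (24.4% of all regions), and the libraries overlapped at Irx5, Nkx6-2, Otx2, Pitx3 and Cdx1. On the kept-region scale 34 genes had all treated libraries below, 3 above and 16 overlapping. No share of all regions is given beside these kept-region counts, so they describe the set only.

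**Figure D1:**
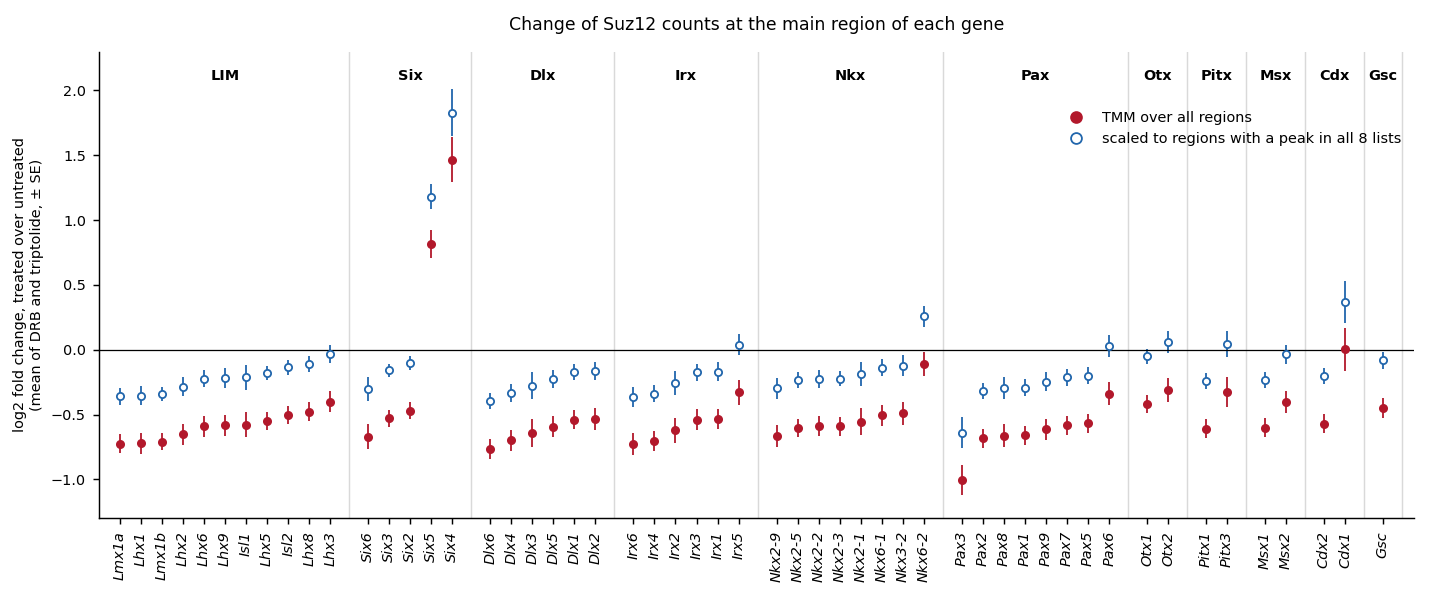
Log2 fold change of Suz12 counts at the main region of each of 53 genes, as the mean of the DRB and triptolide effects with its SE (vertical axis), by gene family. Filled red points are TMM-scaled and open blue points are scaled to regions with a peak in all 8 lists: red points lie below 0 except at Six4, Six5 and Cdx1, and each blue point lies above its red one.

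The LIM genes encode homeodomain proteins with a pair of LIM zinc-binding domains, which specify neuron classes, limb patterning and pituitary fate. All 11 main regions fell, by 0.40 to 0.73 on the log2 scale with a median of −0.58, and 7 were called lower with kept-region scaling, at a median of −0.22. The largest fall was at Lmx1a (chr1:167687226-167693574), a factor of dopaminergic neurons and the roof plate, with 568 and 555 CPM at DRB 0 h against 350.5 and 355 at 12 h. It had 574 and 578 CPM at triptolide 0 h against 333 and 336 at 9 h. Treated and untreated libraries did not overlap, and the change was −0.73 ± 0.07 (SE, edgeR adjusted p = 1.14e-05), or −0.36 with kept-region scaling. Lmx1b, its relative in dorsal limb and hindbrain patterning, carried the widest counted peak, with 2231 and 2092 CPM at DRB 0 h against 1388 and 1429 at 12 h. It had 2229.8 and 2367 CPM at triptolide 0 h against 1337 and 1297 at 9 h, again without overlap, and changed by −0.71 ± 0.06 (SE, edgeR adjusted p = 5.72e-06). The smallest falls were those of Lhx3, a pituitary and motor neuron gene (−0.40 ± 0.08, −0.033 with kept-region scaling), and Lhx8 (−0.48 ± 0.07, −0.11). Lhx1, which acts in head and kidney formation, changed by −0.72 ± 0.08, Lhx2, a gene of eye and cortex, by −0.65 ± 0.08, and the motor neuron and heart gene Isl1 by −0.58 ± 0.10 (SE).

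The genes Six2 to Six6, of the sine oculis family, act in the eye, muscle, kidney and sense organs. Among the families as listed in the set, theirs alone had TMM-scaled calls in both directions. Of the Nkx genes, Nkx6-3, which is outside the set, was called higher (0.43). Six2, Six3 and Six6 fell, while Six4 and Six5 rose under both drugs and both scalings. Six4 (chr12:73110202-73113781) had 40.3 and 50.4 CPM at DRB 0 h against 88.0 and 155 at 12 h. It had 51.3 and 50.2 CPM at triptolide 0 h against 166 and 125 at 9 h. All 4 treated libraries were above all untreated ones, and the change was 1.46 ± 0.17 (SE, edgeR adjusted p = 3.24e-05), or 1.83 with kept-region scaling. Six4 had the lowest Suz12 density of the set, and no peak was called in DRB 0 h list 1 or triptolide 0 h list 1. Its peak was 745 and 796 bp wide in the other untreated lists, and 2346 and 3548 bp at DRB 12 h and 3580 and 2825 bp at triptolide 9 h. The longer treated lists move with this gain, and their part in it was not tested.

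Six5 (chr7:19094018-19097318) had a peak in all 8 lists and also rose. It had 153 and 119 CPM at DRB 0 h against 259 and 206 at 12 h. It had 117 and 122 CPM at triptolide 0 h against 214 and 213 at 9 h. The lowest treated library was above the highest untreated one, and the change was 0.82 ± 0.11 (SE, edgeR adjusted p = 6.50e-05), or 1.18 with kept-region scaling. Its peak widened from 1339 and 1631 to 3014 and 3065 bp in the DRB lists and from 1242 and 1837 to 3301 and 3016 bp in the triptolide lists. Both regions lie at the ends of other genes too, that of Six4 at Mnat1, which encodes a subunit of the kinase part of TFIIH, and that of Six5 at Dmpk, the myotonic dystrophy kinase gene, and Bhmg1. Binding there cannot be assigned to Six4 or Six5 alone.

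Six3, which patterns the forebrain and eye, had the widest merged region and among the highest counts, with 2109 and 1908 CPM at DRB 0 h against 1475 and 1439 at 12 h. It had 2019 and 2139 CPM at triptolide 0 h against 1388 and 1368 at 9 h, with no overlap, and changed by −0.53 ± 0.07 (SE, edgeR adjusted p = 4.31e-05), or −0.16 with kept-region scaling. Six6, of the retina and hypothalamus, fell most in the family (−0.67 ± 0.10), and Six2, which maintains kidney progenitors, changed by −0.47 ± 0.07 (−0.10 and not called with kept-region scaling). The cluster from Six6 to Six4 spans 174 kb on chromosome 12. Along this cluster Suz12 counts were thus lower at one end and higher at the other, with 3 of its 8 regions lower, 1 higher and 4 not called.

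The Dlx genes, which pattern the branchial arches, limbs and forebrain interneurons, moved together. All 6 fell, by 0.53 to 0.76 with a median of −0.62, and 5 were lower with kept-region scaling (median −0.25). Dlx6 (chr6:6859014-6866542) fell most, with 806 and 719 CPM at DRB 0 h against 465 and 446 at 12 h. It had 766 and 837 CPM at triptolide 0 h against 456 and 472 at 9 h, and no library overlapped between treated and untreated. Its change was −0.76 ± 0.08 (SE, edgeR adjusted p = 1.14e-05), or −0.40 with kept-region scaling. Its neighbour Dlx5 changed by −0.59 ± 0.08, and the Dlx1 and Dlx2 pair by −0.54 ± 0.07 and −0.53 ± 0.08 (SE). Dlx3, of placenta, skin and bone, changed by −0.64 ± 0.11 and its neighbour Dlx4 by −0.70 ± 0.08 (SE).

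The Irx genes, which act in neural, heart and limb patterning, lie in clusters of 3 on chromosomes 13 and 8. All 6 fell, by 0.33 to 0.73 with a median of −0.58, and 4 were lower with kept-region scaling, at a median of −0.21. Irx6 (chr8:92673041-92675969) fell most, with 249 and 255 CPM at DRB 0 h against 159.6 and 165 at 12 h. It had 267 and 299 CPM at triptolide 0 h against 158 and 162 at 9 h, without overlap, and changed by −0.73 ± 0.08 (SE, edgeR adjusted p = 2.78e-05), or −0.36 with kept-region scaling. Irx5 fell least (−0.33 ± 0.09). Its libraries overlapped between treated and untreated, it was not called under DRB alone, and its sign turned to 0.037 with kept-region scaling. Irx4, a gene of the heart ventricle, changed by −0.71 ± 0.08 and Irx3 by −0.54 ± 0.08 (SE).

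Of the Nkx genes, regulators of thyroid, lung, heart, gut and ventral neural tube, 7 of 8 fell and Nkx6-2 was not called. The median was −0.57, and with kept-region scaling 4 were lower and 1 higher at a median of −0.20. Nkx2-9 (chr12:56610690-56615680), of the ventral neural tube, fell most, with 403 and 395 CPM at DRB 0 h against 218 and 261 at 12 h. It had 444 and 451 CPM at triptolide 0 h against 288 and 302 at 9 h, without overlap, and changed by −0.66 ± 0.08 (SE, edgeR adjusted p = 4.63e-05), or −0.30 with kept-region scaling. Nkx2-1, the thyroid and lung regulator, had the highest density of the set, with 1042 and 848 CPM at DRB 0 h against 754 and 574 at 12 h. It had 845 and 1028 CPM at triptolide 0 h against 605 and 630.2 at 9 h, without overlap, and changed by −0.55 ± 0.11 (SE, edgeR adjusted p = 0.000743), or −0.19 and not called with kept-region scaling. Nkx2-5, the cardiac regulator, changed by −0.60 ± 0.07, and Nkx2-2, which acts in the pancreas and ventral neural tube, by −0.59 ± 0.08 (SE).

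Nkx6-2, a gene of ventral neural and oligodendrocyte development, had no called change with TMM scaling. It was described in full after its values were seen. It had 722 and 586 CPM at DRB 0 h against 697 and 567 at 12 h. It had 601 and 679 CPM at triptolide 0 h against 571 and 566 at 9 h. Treated and untreated libraries overlapped, with a change of −0.11 ± 0.09 (SE, edgeR adjusted p = 0.34). With kept-region scaling it was called higher, at 0.26 (edgeR adjusted p = 0.0164). Its peak was 2651 to 5329 bp wide in untreated lists and 5827 to 5980 bp in treated ones. Inpp5a, a phosphatase gene, has an end at the same region.

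All 8 Pax genes with a region fell, at a median of −0.64, the lowest of the families with more than 2 genes, though families were not tested against each other. With kept-region scaling 7 were lower, at a median of −0.27. The largest fall over the main regions was at Pax3, a gene of neural crest and muscle progenitors. It had 346 and 404 CPM at DRB 0 h against 153 and 227 at 12 h. It had 415 and 371 CPM at triptolide 0 h against 188 and 193 at 9 h. Every treated library was below every untreated one, and the change was −1.01 ± 0.12 (SE, edgeR adjusted p = 2.91e-05), or −0.64 with kept-region scaling. The counted peak (chr1:78198687-78205668) lies 1.55 kb beyond the gene's upper-coordinate end, within a merged region of 16914 bp that spans that end.

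Pax6, the eye and forebrain regulator, fell least in the family, at −0.34 ± 0.09 (SE, edgeR adjusted p = 0.00491). It was not called under triptolide alone (−0.28, edgeR adjusted p = 0.0781), and its sign turned to 0.029 with kept-region scaling. Another RefSeq window of Pax6 lies in a separate region inside the gene, with a peak in all 8 lists. That region was not called at −0.19 (edgeR adjusted p = 0.327), or 0.17 with kept-region scaling. Pax2, of kidney and midbrain, changed by −0.68 ± 0.07, Pax7, of muscle stem cells, by −0.58 ± 0.07, and Pax5, of B cells and midbrain, by −0.57 ± 0.07 (SE). Pax1 and Pax9, which act in the sclerotome, changed by −0.66 ± 0.07 and −0.62 ± 0.08, and the thyroid and kidney gene Pax8 by −0.66 ± 0.09 (SE).

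Both Otx genes of the anterior brain fell, and neither was called with kept-region scaling. Otx1 (chr11:21992450-22005228) had 1871 and 1637 CPM at DRB 0 h against 1410.0 and 1333 at 12 h. It had 1711 and 1882 CPM at triptolide 0 h against 1273 and 1292 at 9 h, without overlap, and changed by −0.42 ± 0.07 (SE, edgeR adjusted p = 0.000353), or −0.051 with kept-region scaling. Otx2 changed by −0.31 ± 0.09 (SE, edgeR adjusted p = 0.0117), its libraries overlapped, and its sign turned to 0.059 with kept-region scaling. Without triptolide 9 h replicate 2 the Otx2 call ended, at −0.28 (edgeR adjusted p = 0.0701). One of the 4 RefSeq windows of Otx2 lies in a separate region inside the gene, with a peak in 7 lists, which was not called at 0.28 (edgeR adjusted p = 0.114).

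Of the Pitx genes, Pitx1, of hindlimb and pituitary, fell. It had 1976 and 1729.9 CPM at DRB 0 h against 1377 and 1202 at 12 h. It had 1807 and 1970.5 CPM at triptolide 0 h against 1159 and 1173 at 9 h, without overlap, and changed by −0.61 ± 0.08 (SE, edgeR adjusted p = 4.08e-05), or −0.24 with kept-region scaling. Pitx3, of lens and dopaminergic neurons, had the weakest call of the set, at −0.33 ± 0.11 (SE, edgeR adjusted p = 0.0267), and passed under neither drug alone. The call ended when any 1 of 5 libraries was left out. The values were −0.22 without DRB 0 h of index ATCACG, −0.24 without DRB 12 h of index TGACCA, −0.26 without triptolide 0 h replicate 2, and −0.33 and −0.31 without triptolide 9 h replicates 1 and 2, with edgeR adjusted p from 0.0650 to 0.119. With kept-region scaling its sign turned to 0.043.

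The Msx genes, of teeth, skull and limb, both fell. Msx1 (chr5:37820596-37829984) had 1130.0 and 1021 CPM at DRB 0 h against 718 and 770.4 at 12 h. It had 1079 and 1115 CPM at triptolide 0 h against 703 and 672 at 9 h, without overlap, and changed by −0.60 ± 0.07 (SE, edgeR adjusted p = 3.30e-05), or −0.23 with kept-region scaling. Msx2 changed by −0.40 ± 0.08 (−0.037 and not called with kept-region scaling). Gsc, the organizer gene goosecoid, had 805 and 705 CPM at DRB 0 h against 604 and 542 at 12 h. It had 733 and 767 CPM at triptolide 0 h against 544 and 516 at 9 h, without overlap, and changed by −0.45 ± 0.08 (SE, edgeR adjusted p = 0.000427), or −0.082 and not called with kept-region scaling.

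Of the Cdx genes Cdx2 fell and Cdx1 was not called, and the difference between them was not tested. Cdx2 (chr5:147300905-147308480), the trophectoderm and gut regulator, had 836 and 777 CPM at DRB 0 h against 587 and 548 at 12 h. It had 829 and 929 CPM at triptolide 0 h against 566 and 566 at 9 h, without overlap, and changed by −0.57 ± 0.08 (SE, edgeR adjusted p = 6.11e-05), or −0.20 with kept-region scaling. Cdx1, its relative of gut and axial patterning, had the narrowest peak and 176 and 109 CPM at DRB 0 h against 175 and 116 at 12 h. It had 108 and 152 CPM at triptolide 0 h against 124 and 126 at 9 h. Libraries of 1 group lay as far apart as the groups did, and the change of 0.0019 ± 0.17 (SE, edgeR adjusted p = 0.993) had the second largest error of the set, after Six4. With kept-region scaling it was 0.37 and not called (edgeR adjusted p = 0.063).

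**Figure D2:**
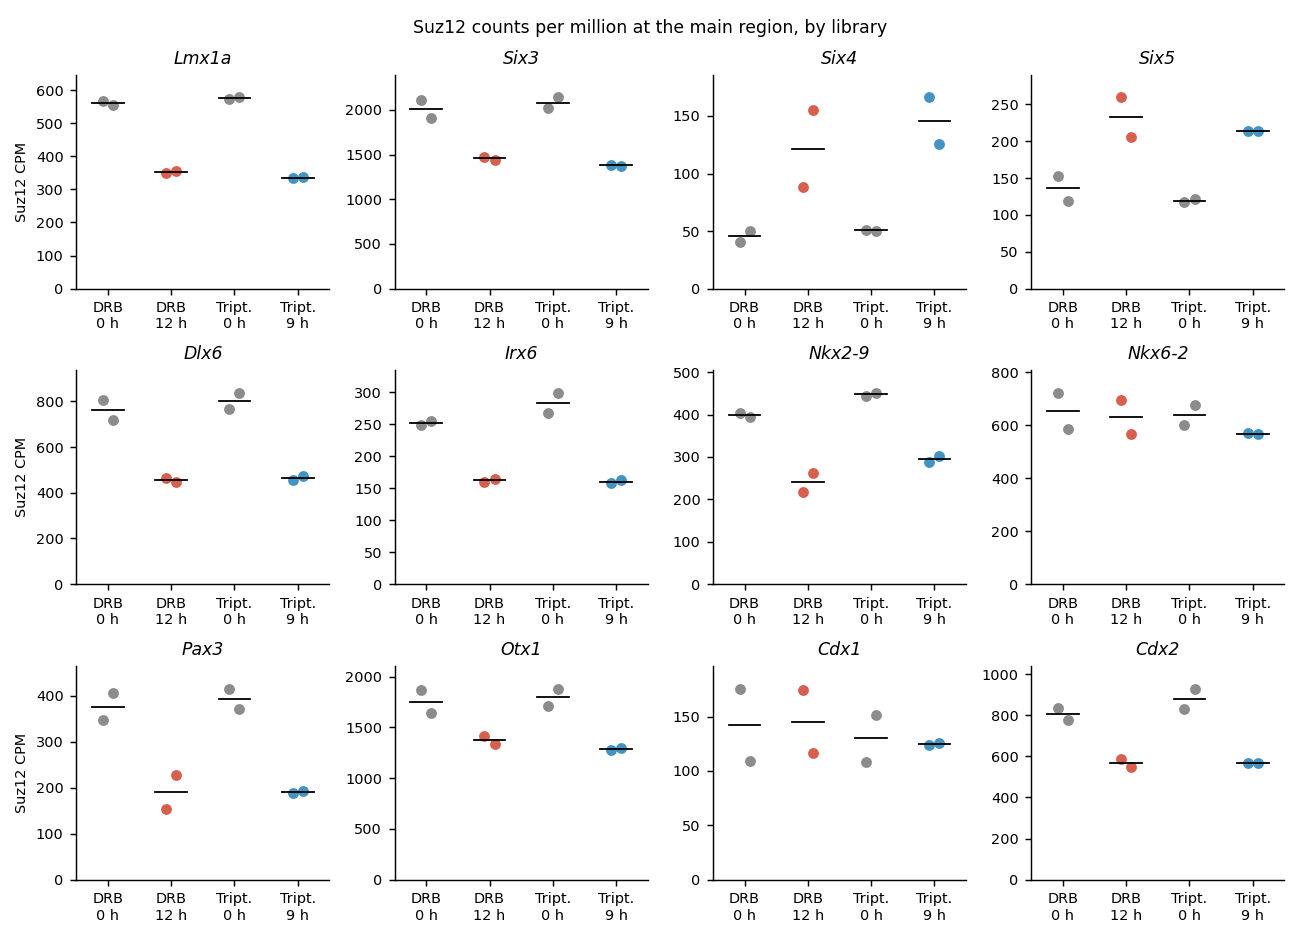
Suz12 CPM (vertical axis, from 0) at the main region of 12 genes in each library, with 2 libraries a group (points) and their mean (line). Treated points (red for DRB 12 h, blue for triptolide 9 h) lie below the grey untreated ones at 8 genes, above them at Six4 and Six5, and overlap them at Nkx6-2 and Cdx1.

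With TMM scaling most genes fell under each inhibitor, which kept-region scaling did not give for either one. Under DRB 46 of 53 regions were lower and 2 higher, where all regions had 19.2% lower and 18.1% higher, and the median was −0.52. Under triptolide 47 were lower and 2 higher, where all regions had 21.9% lower and 19.3% higher, and the median was −0.61. Besides Nkx6-2 and Cdx1, DRB left Irx5, Otx2 and Pitx3 without a call, and triptolide left Pax6 and Pitx3. With kept-region scaling 13 regions were lower and 2 higher under DRB, where all regions had 4.78% lower and 33% higher. On that scale 18 were lower and 2 higher under triptolide, where all regions had 4.75% lower and 38% higher. Each drug had its own untreated libraries. Across the 53 genes the changes under both drugs had a Pearson r of 0.975, and the 50 genes with a negative change under both had a Spearman rho of 0.841. The genes share libraries and scaling within a drug, so these values describe the set only.

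No gene of the set passed a test of the difference between the drugs (0 of 53 by edgeR and 0 by DESeq2), where 0.0167% of all regions did by edgeR. At an unadjusted edgeR p under 0.05, 0 of the 53 genes and 193 of all 11943 regions passed. Such calls were thus rare in the whole series too. The triptolide effect minus the DRB effect ran from −0.24 to 0.16 with a median of −0.11, a median SE of 0.16 and a smallest edgeR adjusted p of 0.999. It was negative at 45 of the 53 genes, and its median over all regions was −0.037. The share of all regions with a negative difference is not given and the genes share libraries, so that count describes the set only. Differences within the SE could not be detected with 2 libraries a group, and the drugs also differed in dose and time.

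**Figure D3:**
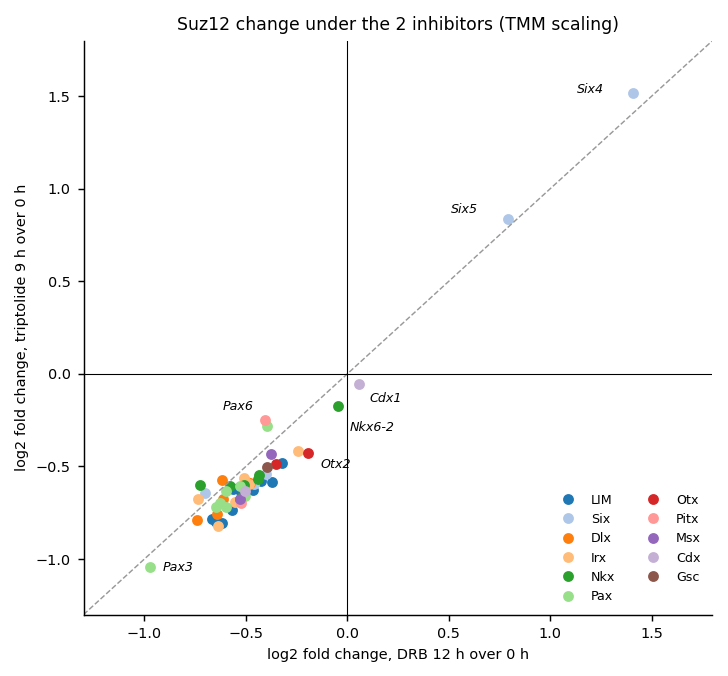
Log2 fold change of Suz12 counts under DRB (horizontal axis) and triptolide (vertical axis), TMM-scaled, with 1 point for each of 53 genes coloured by family and a dashed line of equal change. Most points form a cloud below 0 on both axes, Pax3 lies lowest, and Six5 and Six4 lie apart at the upper right.

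Both genes that rose and both that were not called had a main region that also lay at an end of another protein-coding gene, which was noticed after the values were seen. There were 7 such genes, namely Six4 (with Mnat1), Six5 (Dmpk, Bhmg1), Nkx6-2 (Inpp5a), Otx1 (Ehbp1), Pitx1 (Catsper3), Pitx3 (Elovl3) and Cdx1 (Gm52351). Of these 7, 3 fell, 2 rose and 2 were not called, at a median of −0.11 (0.26 with kept-region scaling). The other 46 genes all fell, at a median of −0.59 (−0.22 with kept-region scaling, where 31 of the 46 were lower and none higher). The whole series showed a gap of the same sign. Of regions in all 8 lists, 59.8% of the 2797 at an end of 1 gene were lower at a median of −0.38, and 39.3% of the 257 at ends of more than 1 gene were lower at a median of −0.091. Higher calls made up 10.2% of the former and 25.3% of the latter. Of the 6 shared regions of the set that had a peak in all 8 lists, 3 were lower and 1 higher. The difference between these groups was not tested.

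Peak widths overlapped between treated and untreated lists at most genes. Comparing the widest peak of a list within each main region, the mean treated width was below the mean untreated width at 39 of the 52 genes with a peak in all 8 lists (38.9% of such regions), at a median ratio of 0.927, where all such regions had 1.04. All 4 treated lists were narrower than all untreated ones at 0 of 52 genes (0.374% of such regions). They were all wider at 2, Six5 and Nkx6-2 (12.5% of such regions). At Pax2 the peak was 5827 and 10545 bp wide at DRB 0 h and 15004 and 11140 bp at triptolide 0 h, and 3718 and 6337 bp at DRB 12 h and 7876 and 5853 bp at triptolide 9 h. These ranges overlapped between treated and untreated lists.

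**Figure D4:**
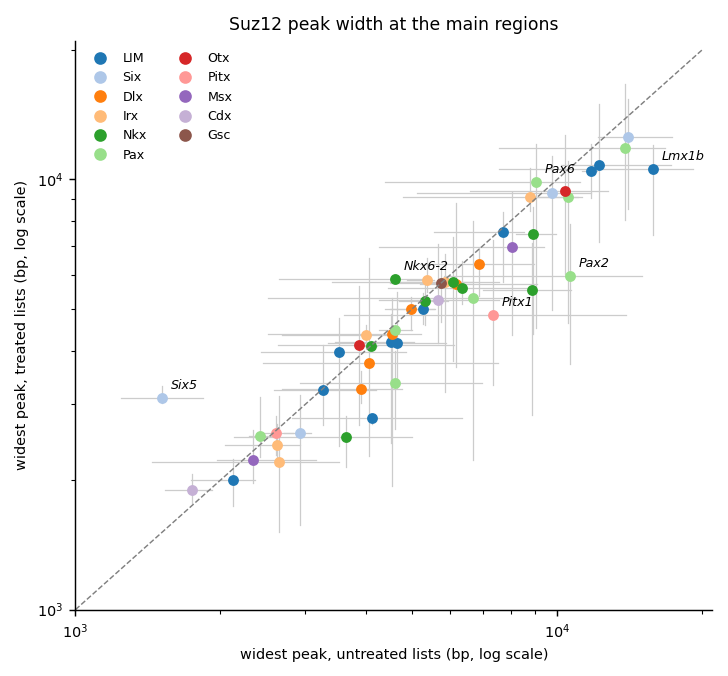
Width of the widest Suz12 peak within the main region of 52 genes, as the mean of 4 untreated lists (horizontal axis, bp, log scale) and of 4 treated lists (vertical axis, bp, log scale), coloured by family. Grey lines span the lowest to the highest list and the dashed line marks equal width: 39 genes lie below it, and Six5 lies farthest above.

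The other 22 regions at the ends of 20 of these genes were mostly lower too, with 18 lower, 1 higher and 3 not called at a median of −0.59 with TMM scaling. With kept-region scaling 8 of the 22 were lower, 3 higher (at Nkx6-2, Otx2 and Six5) and 11 not called, at a median of −0.23. The shares over all regions are those given for the main regions. Of the 22 regions 17 had a peak in all 8 lists. A region of fewer lists entered through the lists that called it, which can set its direction. The lowest value was −1.11 ± 0.20 (SE) at Dlx6, in a region of 2 lists with a mean of 14.4 CPM. Next came −1.02 ± 0.10 (SE) at Pax1, in a region of all 8 lists. A region beside Msx1 fell by 0.92 ± 0.08, and a pair beside Irx4 fell by 0.84 ± 0.11 and 0.99 ± 0.12 (SE). The single rise with TMM was a small region of 1 list at the end of Otx2, with a mean of 7.93 CPM (0.98 ± 0.27, SE). Most clustered regions fell together with TMM scaling, the only one under which clusters were counted. Of all regions 28.9% were lower, and of those with a peak in all 8 lists 59.1%. In the cluster of Irx1, Irx2 and Irx4 9 of 10 regions were lower, and in that of Irx3, Irx5 and Irx6 7 of 7. Around Dlx5 and Dlx6 5 of 5 regions were lower, of which 3 had a peak in all 8 lists. Around Six3 and Six2 5 of 5 were lower, of which 2 had one. From Nkx2-1 through Nkx2-9 to Pax9 6 of 6 were lower, and from Nkx2-2 to Pax1 4 of 4. These blocks also held regions at no end of a member, and 3 of 3 such regions in each Irx cluster were lower. The cluster of Six6 and Six4 was the exception.

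Homeobox genes outside the set were mostly lower as well. Of a list of 81, 72 had a peak at an end in all 8 lists, 4 in some and 5 in none. Of their 76 main regions 58 were lower and 4 higher, at a median of −0.54, and with kept-region scaling 32 were lower and 11 higher. The 4 that rose were Gbx2 (0.65 ± 0.08), Nkx6-3 (0.43 ± 0.13), Pbx3 (0.39 ± 0.11) and Hhex (0.28 ± 0.09, SE). The difference between this list and the 55 genes was not tested. Among partners of LIM and sine oculis proteins, Eya1, Eya2, Eya4, Dach1 and Lmo1 had peaks in all 8 lists and fell with TMM scaling. With kept-region scaling Eya1 (−0.12) and Eya2 (−0.14) were not called, so that 3 of the 6 partner regions were lower, 1 higher and 2 not called. The higher one was Lmo4, which had a peak in the 4 treated lists alone, so its region entered through the libraries where it is high. Ldb1, Ldb2, Lmo2, Lmo3, Eya3 and Dach2 had none at an end. Genes of the stem cell state were checked in place of expression, which was not analysed here. Pou5f1, Nanog, Esrrb, Zfp42, Tdgf1 and Dppa5a had no Suz12 peak at an end, and Sox2 and Klf4 had one in the 4 treated lists alone.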

How the data were processed

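Suz12 ChIP-seq of 8 libraries in 4 groups was used, and 12 of the 20 samples of the series were not analysed here. Bowtie was the authors' aligner and MACS their peak caller, on GRCm38 (mm10), per the submitters' processing notes, and no version is given in the sources used here. A deposited list gives 1 library's peaks and, per the file headers, raw read counts over them in 13 columns, of which 5 were not used. Peaks overlapping by 1 bp were merged, and each region took the counts of its widest peak. The test was edgeR 4.0.16 (R 4.3.3), by quasi-likelihood with TMM, 4 groups and no filter, with Benjamini-Hochberg adjustment over 11943 regions at an adjusted p under 0.05, and it was checked on simulated data. Genes are those of RefSeq GRCm38.p6 on the autosomes and X. Alternatives were other scalings, DESeq2 1.42.0, a filter on low counts, the narrowest peak, other windows at gene ends, a replicate block and each library left out.

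The members, gene lists and tests were chosen with earlier results of these data known. Values of every library are given for the gene of largest change in each family, genes that rose, genes without a peak in all lists, and extremes of density and width. Other genes so described were added later. Promoter sequences were set by rule for the genes of largest fall and smallest change and those without peaks at an end, of which Lhx4 alone is printed. Some values of the comparison list are not reported here.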

Additional observations from a re-analysis of the deposited data

How the results depend on the processing

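The scaling decides most of what moved. With kept-region scaling 32 regions of the set were lower over both drugs, 13 under DRB and 18 under triptolide, and 32 of the other homeobox regions were lower. The median of the set was −0.21 with kept-region scaling, −0.38 with the sum of all counts and −0.72 with counts over the narrowest peak. Signs turned with kept-region scaling at Irx5 (0.037), Nkx6-2 (0.26), Pax6 (0.029), Otx2 (0.059) and Pitx3 (0.043), and with the narrowest peak at Irx5 (0.012). Dlx5, Gsc and Otx2 were not called with the narrowest peak, where Nkx6-2 was called lower (−0.35), and Irx5, Pax6, Otx2 and Pitx3 were not called with the sum of all counts. The causes were not tested. With DESeq2 and with a filter on low counts, 49 regions were lower and 2 higher. Leaving out each library in turn gave a median of the set over both drugs between −0.60 and −0.54. The number of lower calls under each drug alone then moved more than the number over both drugs. With the narrowest peak 33 regions were lower under DRB and 38 under triptolide. With a replicate block on the triptolide numbers, 49 regions were lower and 2 higher over both drugs. Same-numbered triptolide libraries deviated together (r = 0.391), as did DRB libraries of 1 index (r = 0.375), but with 2 pairs each this does not establish pairing. A replicate block by triptolide number and DRB index, chosen after seeing the data, gave 49 lower, with 48 under DRB and 49 under triptolide. A peak at an end in all 8 lists was found for 52 genes in the main setting, and for 50 with a window of 0.5 kb or with peaks of at least 1357 bp alone. Windows of 0.5 and 2.5 kb each gave 49 lower. Depth limits Six4 most, whose lowest count was 49 reads.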
